A study of Mus musculus with 2 samples.

Results

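The p53 peaks that lie in the replication-dependent histone gene clusters of the mouse numbered 57 of the 7893 peaks in a list called from embryonic kidney. They were taken as every peak whose midpoint fell in 1 of 3 windows in mm9 coordinates. The first Hist1 window ran from 21780000 to 22150000 on chromosome 13 and held 19 peaks. The second Hist1 window ran from 23450000 to 23900000 on the same chromosome and held 31 peaks. The Hist2 window ran from 95980000 to 96120000 on chromosome 3 and held 7 peaks. These windows were chosen by the density of peaks already seen in this list, so the number and spacing of their peaks are a description and were not tested. The study profiled p53, a transcription factor, by ChIP-seq, in which DNA fragments held by an antibody are sequenced. It comprised a p53 library (n = 1) and an input library of chromatin DNA made with no antibody (n = 1). Both came from kidney of wild-type C57BL embryos at E15.5, in embryonic days, with no agent or allele named in the labels. Only the peak list of the p53 library was analysed here, so there is no replicate, no control group and no replicate error on any value below. How many embryos were pooled is not given, and a list of peaks from whole kidney cannot tell cell types or cell cycle phases apart. The tissue label could not be checked against marker genes, since the list holds no expression.

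Replication-dependent histone genes encode the linker histone H1 and the core histones H2A, H2B, H3 and H4, which package newly made DNA. They are mostly short genes without introns that are transcribed mainly in S phase, and their mRNAs mostly end in a stem-loop in place of a poly(A) tail. The cyclin E-CDK2 substrate NPAT gathers at the clusters in a nuclear body and activates their transcription. p53 is best known in this setting for inducing p21, an inhibitor of that kinase, which is known to lower histone transcription after DNA damage. In the embryonic kidney, p53 is present while nephron progenitors are still dividing.

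The 56 histone genes considered comprised 49 Hist1 and 7 Hist2 genes. By family there were 6 H1, 14 H2A, 15 H2B, 11 H3 and 10 H4 genes. All 56 matched the RefSeq gene table of GRCm38.p6, in which 52 spanned less than 1 kb and the median span was 492.5 bp, next to 17146 bp over 21900 protein-coding genes. The longest, Hist1h2be, spanned 37455 bp. The peak list is in mm9, so no peak was assigned to a gene, and gene order and sequence from GRCm38.p6 stand beside the peaks without being joined to them. In that order the Hist1 genes fell into 5 blocks, each broken from the next by other protein-coding genes. The first block ran from Hist1h2bl to its last histone gene before Zfp184 and counted 18 histone genes, 13 of them among the 56. The next counted 5, from Hist1h2ah to Hist1h2bj. Between these blocks stood 3 other protein-coding genes (Zfp184, Pom121l2 and Prss16) and 31 tRNA genes. The third block held 20 genes, from Hist1h4h to Hist1h4c, and the iron-regulating gene Hfe parted it from the fourth, of 9 genes, from Hist1h1c to Hist1h1a. Hist1h2ba and Hist1h2aa, which encode testis variants, formed the fifth block beyond Trim38 and 4 Slc17a genes. The 7 Hist2 genes lay in 1 block of 10 histone genes between Bola1 and Fcgr1. The windows can therefore hold tRNA and other genes as well as histone genes. Whether the mm9 windows hold exactly the 56 genes could not be checked. Below, histone peaks means all peaks in the windows, and not peaks shown to lie at histone genes.

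Matches to the p53 half-site, the short palindromic element of which a p53 response element holds a pair, had a share in histone promoters whose interval covered the share in all promoters. Promoter windows of 300 bases, from 250 before the start to 50 after it, were at hand from RefSeq (GRCm38.p6) for 51 of the 56 genes, as 52 windows with 2 for Hist1h2be. Those not matched were Hist1h2bc, Hist1h3a, Hist1h3f, Hist2h2be and Hist2h4. The half-site was found in 3 of 52 histone windows, or 5.77% (95% exact binomial interval 1.21 to 15.9%), next to 8.36% of all 32851 promoter windows. The 3 were Hist1h4j, Hist1h4k and Hist1h4i, and no window of H1, H2A, H2B or H3 held one. They are shown because they carry the only matches. The lines give bases -170 to -1 before the start, 5′ to 3′ on the gene's strand (plus for Hist1h4j, minus for the others), with the half-site in capitals.
Hist1h4j: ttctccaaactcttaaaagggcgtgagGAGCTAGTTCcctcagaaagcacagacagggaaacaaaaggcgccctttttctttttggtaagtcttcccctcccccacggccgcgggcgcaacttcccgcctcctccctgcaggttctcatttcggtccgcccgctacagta
Hist1h4k: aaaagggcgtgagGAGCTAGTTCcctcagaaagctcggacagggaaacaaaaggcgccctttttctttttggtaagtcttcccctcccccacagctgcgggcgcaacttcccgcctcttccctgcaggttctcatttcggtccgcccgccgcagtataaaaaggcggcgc
Hist1h4i: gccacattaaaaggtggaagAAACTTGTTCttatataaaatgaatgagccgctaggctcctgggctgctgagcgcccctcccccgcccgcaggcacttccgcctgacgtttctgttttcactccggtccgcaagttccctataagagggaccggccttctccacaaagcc
The half-site began 143 bases before the start in Hist1h4j, 157 in Hist1h4k and 150 in Hist1h4i. Hist1h4j and Hist1h4k, neighbours in the first block, carried the same letters, and their promoter windows were 87.6% identical after alignment, the highest value of any pair within the 5 families. The Hist1h4j and Hist1h4i windows were 54.7% identical, and the median over 36 pairs of H4 windows was 49.4%. A match is a description of letters and not a site of binding, and none of these windows could be set against a peak.

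Promoter elements known from histone genes were more frequent in these windows than over all promoters. The CCAAT box, bound by NF-Y, was found on either strand in 46 of 52 windows (88.5%), next to 37.4% of all promoters. It was in every H1, H2A, H2B and H3 window and in 3 of 9 H4 windows. TATAAA, the core of the TATA box, was anywhere in the window on either strand in 31 of 52 (59.6%), next to 13.6%. On the gene's own strand it was in 26 of 52 (50%), next to 8.32%. It began 20 to 40 bases before the start on that strand in only 10 genes, a count not made for all promoters. ATTTGCAT, the octamer known from H2B promoters and bound by OCT1, was in 13 of 52 (25%), next to 1.74%. It was found in 7 of 14 H2B windows, all on the gene's own strand, and in no window of H1, H3 or H4. It was also in 6 of 14 H2A windows, but in 0 of 14 on the gene's own strand. AAACACA, the AC box of H1 promoters, was in 9 of 52 (17.3%), next to 7.18%. By family it was in 5 of 6 H1, 2 of 14 H2A and 2 of 14 H2B windows (14.3% each for H2A and H2B), and in no H3 or H4 window. In those 5 H1 promoters it began 112 to 122 bases before the start, while the sixth, Hist1h1a, held none. These motifs were searched as the letters given, on both strands, and a window may hold several of them.

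Elements of this kind are shown in 3 chosen sequences, which do not stand for every promoter of their families. On the gene's own strand TATAAA was in 4 of 6 H1, 9 of 14 H2A, 3 of 14 H2B and 4 of 9 H3 windows. The TATA box core, the CCAAT box, the octamer and the AC box are in capitals on whichever strand they fell. The first is all 179 bases between the starts of Hist1h2ae and Hist1h2bg, 2 genes read in opposite directions from 1 shared promoter, given 5′ to 3′ on the plus strand, that of Hist1h2bg. The second is bases -130 to -1 of the linker histone gene Hist1h1e (minus strand), and the third bases -120 to -1 of the H3 gene Hist1h3d (plus strand).
Hist1h2ae to Hist1h2bg: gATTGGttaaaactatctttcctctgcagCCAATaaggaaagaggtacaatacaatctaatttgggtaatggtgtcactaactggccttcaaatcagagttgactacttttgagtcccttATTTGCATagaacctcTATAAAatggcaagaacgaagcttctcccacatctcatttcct
Hist1h1e: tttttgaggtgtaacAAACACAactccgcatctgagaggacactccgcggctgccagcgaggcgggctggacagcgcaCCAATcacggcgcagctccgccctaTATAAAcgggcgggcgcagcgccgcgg
Hist1h3d: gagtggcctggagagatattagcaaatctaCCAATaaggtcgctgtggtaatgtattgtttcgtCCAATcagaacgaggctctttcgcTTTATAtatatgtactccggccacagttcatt
Such head-to-head H2A and H2B genes with overlapping promoter windows made up 8 pairs, with starts 164 to 281 bp apart and a median of 204.5 bp. In 3 of these pairs an octamer lay in at least 1 of the windows. Because the windows of a pair overlap, their motif matches are not independent.

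**Figure D1:**
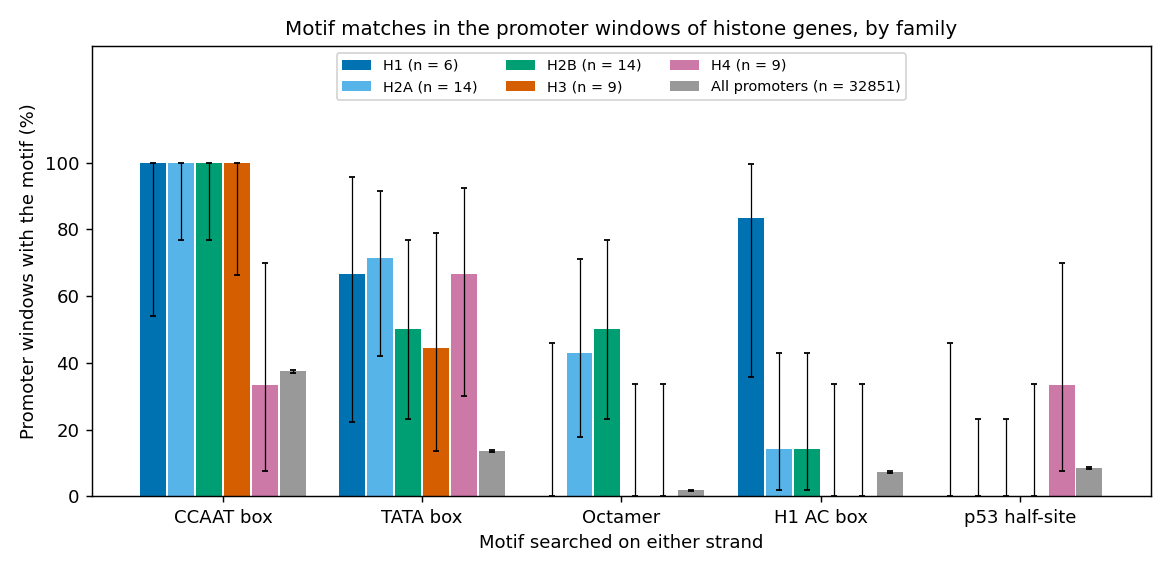
Share of RefSeq promoter windows (%, vertical axis) that hold each of 5 motifs (horizontal axis), for the 5 histone families and all promoters, with 95% exact binomial intervals that cover counting error only. CCAAT was in every window but those of H4, where it was in 3 of 9, and the octamer appeared in H2A and H2B windows. The AC box was in 5 of 6 H1, 2 of 14 H2A and 2 of 14 H2B windows. The p53 half-site was in H4 windows alone among histone windows.

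Peaks were packed into the histone windows at 50 to 68.9 per Mb. The second Hist1 window held 68.9 peaks per Mb, the first 51.4 and the Hist2 window 50. The rest of chromosome 13 held 2.35 and the rest of chromosome 3 held 2.45 per Mb of the span between their first and last peaks, so the windows stood 29.4, 21.9 and 20.4 times as high. Both Hist1 windows together made up 0.703% of the span of chromosome 13 and held 50 of its 322 peaks, or 15.53% (95% exact binomial interval 11.8 to 19.95%). The Hist2 window made up 0.092% of the span of chromosome 3 and held 7 of its 380 peaks (1.84%). The 95% exact Poisson intervals were 46.8 to 97.8 per Mb for the second Hist1 window, 30.9 to 80.2 for the first and 20.1 to 103 for the Hist2 window, and densities were not tested against each other. Peaks covered 9.44% of the bases of the second Hist1 window, 4.97% of the first and 6.76% of the Hist2 window, next to 0.295% over the whole list.

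When chromosome 13 was divided into tiles of 450 kb counted from the second Hist1 window, none of the other 260 tiles reached its 31 peaks. The next highest tile held 13 peaks and overlapped the first Hist1 window, whose remaining peaks lay in a tile of 6. The median tile on the chromosome held 0 peaks, and the tiles on either side of the second window held 0 each. Over all chromosomes the highest of 5674 other tiles of that length held 22. For this and the other windows, tiles were counted from the window on its own chromosome and from the first midpoint elsewhere. Each window was thus kept whole, while other groups of peaks could be split. Placed freely, the fullest 450-kb stretch outside chromosome 13 held 26 peaks, on chromosome 11. For the first Hist1 window, with tiles of 370 kb, 1 of 6901 other tiles held as many as its 19 peaks, and that tile lay over the second Hist1 window. The Hist2 window stood out less. Its 7 peaks were above every other 140-kb tile of chromosome 3, which reached 6 at most, but 43 of 18217 tiles over all chromosomes held as many, up to 14.

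**Figure D2:**
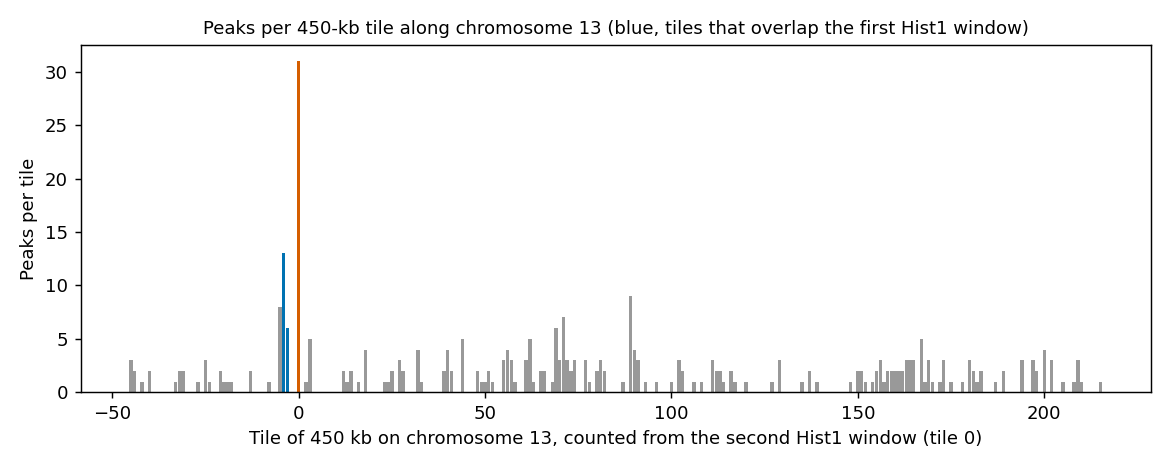
Number of p53 peaks (vertical axis) in each 450-kb tile along chromosome 13 (horizontal axis, tiles counted from the second Hist1 window). The second Hist1 window, in orange, held 31 peaks, and the tiles overlapping the first Hist1 window, in blue, held 13 and 6.

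Within the second Hist1 window, peaks formed separate groups with bare stretches between them. After a lone peak scoring 76.2 at 23460636 to 23461523, a first group of 4 lay from 23515396 to 23530874, with scores of 89.7, 62.1, 76.3 and 154.9. The score is the authors' value for each peak, which rises with the evidence for enrichment and reads 60.01 at the lowest in the list. A stretch of 78.7 kb without a midpoint followed, up to a peak of 69.9 at 23608558 to 23609340. The middle of the window, from 23621826 to 23677555, held 13 peaks, and these included 4 with scores of at least 300. In order, those 4 scored 649.7, 834.5, 484.0 and 514.2, and the weaker peaks among them ranged from 67.1 to 290.7. A lone peak at 23712701 to 23715143 scored 437.1 and lay 36.8 kb from the one before it and 62.0 kb from the one after it. Next came 3 peaks from 23775573 to 23790755 with scores of 217.0, 85.0 and 195.8. The last 8 peaks lay from 23830120 to 23856043 and opened with the highest score of chromosome 13, 1080.4, at 23830120 to 23832582. The other 7 of that group scored from 64.4 to 338.6.

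The first Hist1 window had a different arrangement, with peaks gathered at both ends and thinly spread between. Its first 9 peaks lay from 21807871 to 21879580, with scores from 98.0 to 343.2. Its last 5 lay within 10.5 kb, from 22126055 to 22136525, with scores of 128.8, 172.2, 82.2, 119.9 and 175.0. Between them 5 peaks stood 34.1 to 64.8 kb apart, except that the last stood 12.3 kb before the closing group, and they scored from 77.9 to 182.2. The peak at 21923910 to 21924160 was the narrowest of all 57, at 251 bp, and scored 182.2. Only the peak at 21870605 to 21872805 passed a score of 300, at 343.2, and it was also the widest of the window at 2201 bp.

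In the Hist2 window the 7 peaks scored 225.2, 268.6, 124.4, 395.7, 98.5, 212.1 and 67.3 in order along the chromosome. The highest, at 96065760 to 96067974, was 2215 bp wide, and the widest, at 96023017 to 96025370, was 2354 bp. Gaps between neighbouring midpoints ran from 1.21 to 24.7 kb, with none as long as the widest gaps of the Hist1 windows, 64.8 kb in the first and 78.7 kb in the second. The median gap was 4.65 kb in the second Hist1 window, 9.96 kb in the first and 13.2 kb in the Hist2 window, next to 153.6 kb on the rest of chromosome 13 and 118.5 kb on the rest of chromosome 3.

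**Figure D3:**
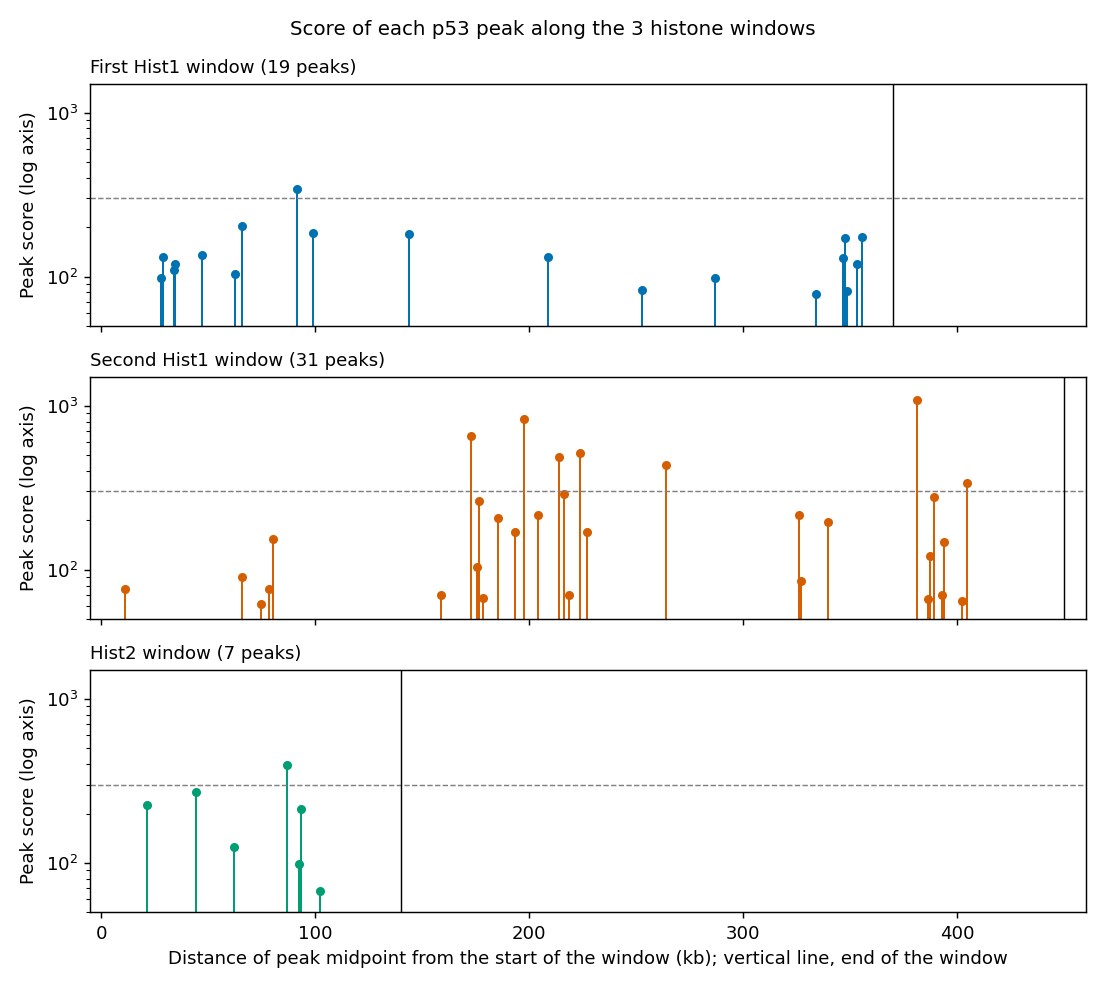
Score of each of the 57 peaks (vertical log axis) against the distance of its midpoint from the start of its window in kb (horizontal axis), with a dashed line at a score of 300. The 7 peaks above the line in the second Hist1 window lay in its middle and towards its end, and the other windows had 1 each.

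Median peak scores were higher in each histone window than on the rest of its chromosome. The median score was 168.8 in the second Hist1 window (95% interval of the median 85.0 to 263.2), 128.8 in the first (98.1 to 175.0) and 212.1 in the Hist2 window (67.3 to 395.7, the whole range of its 7 peaks). It was 87.0 (80.3 to 93.8) on the rest of chromosome 13, 99.4 (94.5 to 106.0) on the rest of chromosome 3 and 96.8 over the whole list. The interval of the first Hist1 window lay above that of the rest of the chromosome, while those of the second Hist1 window and the Hist2 window overlapped theirs. These intervals come from the order of the values and treat peaks as independent, which neighbours in 1 library are not. Of the 57 peaks, 39 (68.4%, 95% exact binomial interval 54.8 to 80.1%) scored at least 100, next to 47.6% of all peaks, 39.3% on the rest of chromosome 13 and 49.3% on the rest of chromosome 3.

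Most of the high scores lay in the second Hist1 window. Of the 57 peaks, 9 (15.8%, interval 7.48 to 27.9%) scored at least 300, next to 4.87% of all peaks. By window these were 7 of 31 (22.6%, interval 9.59 to 41.1%) in the second Hist1 window, 1 of 19 (5.26%) in the first and 1 of 7 in the Hist2 window. The share in the first window was thus close to that of the list as a whole. Without the widest 1% of the list the share in the second window was 3 of 27 (11.1%), next to 4.35% of the remaining list, and over all windows it was 9.62%. Among peaks scoring at least 100 it was 7 of 20 (35%), next to 10.2% of the list. Chromosome 13 had 17 peaks at this score, 8 of them in the Hist1 windows, which included 3 of its 5 highest and 6 of its 10 highest. Chromosome 3 had 16, of which the Hist2 window held 1, the ninth of the chromosome. In the whole list the peak at 23830120 ranked 41st of 7893, and no peak of the histone windows was among the 40 above it. The difference between the Hist1 windows in this share was not tested.

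Widths differed less than scores. The median width was 1178 bp in the second Hist1 window (95% interval 914 to 1533), 762 bp in the first (573 to 1438) and 1143 bp in the Hist2 window. It was 859 bp on the rest of chromosome 13 and 911 bp on the rest of chromosome 3. The first window was thus lower in median width than its chromosome but higher in median score. Peaks of at least 2000 bp numbered 9 of 57 (15.8%), next to 2.7% of all peaks, and 6 of them lay in the second Hist1 window. Of the 9 peaks with a score of at least 300, 7 were that wide, and their median width was 2215 bp, next to 1392 bp for the 375 other peaks of the list at such scores. Among peaks scoring 100 to below 300 the order was the other way, with 964 bp for 30 histone peaks and 1037 bp for 3346 others. Below 100 the histone peaks were again wider, with 914 bp for 18 and 725 bp for 4115 others. Across the 57 peaks score and width had a Spearman's rho of 0.46, next to 0.56 across all 7893. It was 0.54 in the second Hist1 window and 0.08 across the 19 peaks of the first. These are correlations across peaks of 1 library, which are not independent.

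**Figure D4:**
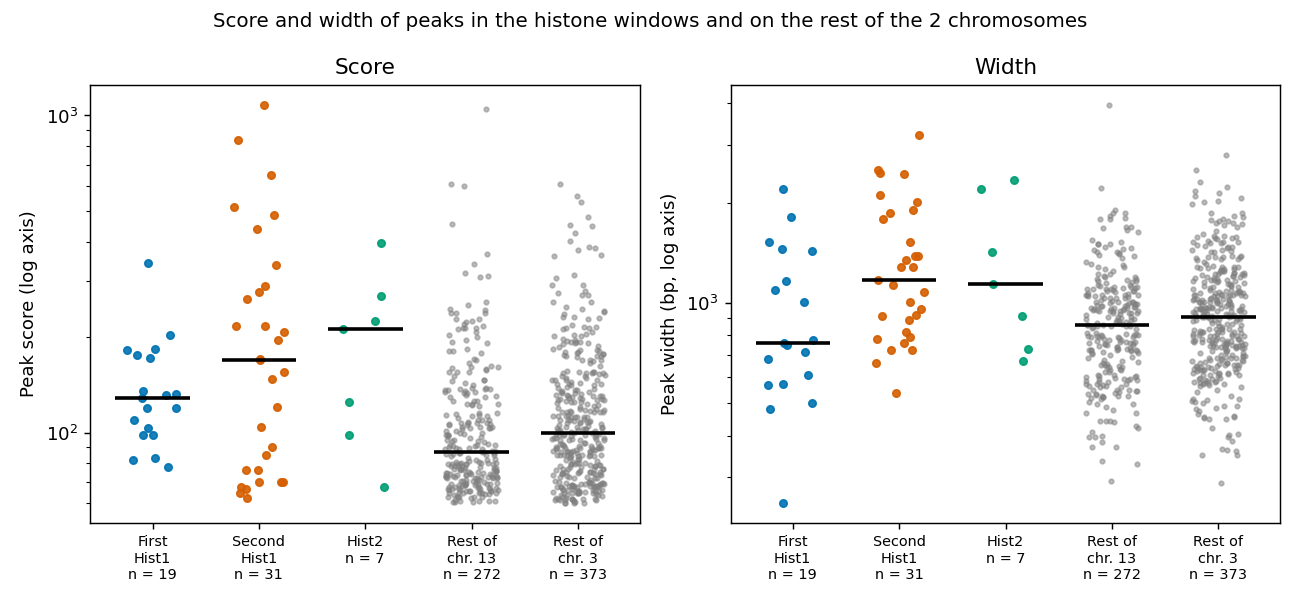
Score (left, log axis) and width in bp (right, log axis) of every peak in the 3 histone windows and on the rest of chromosomes 13 and 3, with black bars at the medians and sideways scatter only to separate points. Median scores were 129, 169 and 212 in the windows next to 87.0 and 99.4, whereas the median width of the first Hist1 window, 762 bp, lay below the 859 bp of the rest of its chromosome.

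Many histone peaks stood close together. Another midpoint lay within 10 kb for 44 of the 57 (77.2%), next to 19.8% of all peaks, and within 2 kb for 21 (36.8%), next to 7.53% of all peaks. Runs of 3 or more peaks with neighbouring midpoints no more than 5 kb apart numbered 6 and held 24 of the 57 peaks (42.1%), next to 2.27% of the whole list. The longest runs had 5 peaks each, from 22126055 to 22136525 in the first Hist1 window and from 23836062 to 23844378 in the second. Peaks filled 53.6% of the bases of the former and 66.3% of the latter. A run of 4, from 23621826 to 23628900, combined scores of 649.7, 104.3, 263.2 and 67.1, and peaks filled 74.8% of it. The closest edges were 1 bp apart, between a peak scoring 64.4 that ended at 23852828 and one scoring 338.6 that began at 23852830. In the first window the closest pair, at 21813541 and 21814283, had 61 bp between its edges and scores of 109.4 and 119.5. When peaks with up to 1 kb between them were merged, 42 regions were left of the 57, as 14, 22 and 6 in the first Hist1, second Hist1 and Hist2 windows. Over the whole list 7578 regions were left of 7893 peaks. Whether neighbouring peaks are parts of 1 enriched region was not tested.

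The 7 peaks with scores of at least 300 in the second Hist1 window had midpoints 9.56 to 117.4 kb from each other in order, with a median of 23.9 kb. Of the 9 such peaks in all windows, 5 had a weaker peak within 5 kb. This count was not made for the other peaks of the list at such scores. The windows were also chosen by peak density, so it is a description only. Beside the peak of 484.0 at 23662799 stood one of 290.7 at 2.13 kb, and beside the peak of 649.7 at 23621826 one of 104.3 at 2.64 kb. The 9 strong peaks made up 28.9% of the bases under all 57.

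The edges of the Hist1 windows fell in stretches with few peaks close by. The 370-kb tile just before the first window still held 4 peaks, next to a median of 0 over the other tiles of chromosome 13. The first Hist1 window had its first peak 28.2 kb inside the edge, with a score of 98.0, and the nearest peak before it lay 219.5 kb outside, with a score of 62.5. Between both Hist1 windows no peak was listed, so that the last midpoint of the first and the first midpoint of the second were 1.325 Mb apart. This gap ranked 24th of 321 on the chromosome. In GRCm38.p6 the stretch from Hist1h2bj to Hist1h4h holds 41 protein-coding genes, 36 of them with vomeronasal receptor names, and 46 tRNA genes. That stretch was not placed in mm9. Its ends need not be those of the gap, and listed peaks may lie in it. The second Hist1 window ended 45.6 kb after its last peak, which scored 338.6, and the next peak lay 473.0 kb beyond the edge and scored 72.6. The Hist2 window was less isolated, with the nearest outside peak 12.5 kb beyond its end, at a score of 180.7. On chromosome 3 the 450-kb stretch with the most peaks, 17, ran from 96000746, the first peak of the window, to 96439805, beyond its end.

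The dense stretches compared on other chromosomes had lower median scores than the second Hist1 window, but not all had a lower maximum. On each chromosome the 450-kb stretch with the most peaks was taken, and the 3 next in number were compared, a choice that uses the same measure as the windows. The stretch on chromosome 11, from 69360368 to 69811307, held 26 peaks with a median score of 137.6. Of these 2 scored at least 300, and the highest, at 3100, was above the 1080.4 of the second Hist1 window. The same value was the highest of the whole list and of the fullest stretch on chromosome 19. Whether it is a ceiling of the score is not known. Chromosome 10, from 80499714 to 80927518, held 24 with a median of 115.9, a highest score of 495.7 and 3 at or above 300. Chromosome 7, from 52070686 to 52472304, held 22 with a median of 108.4, a highest score of 771.2 and 2 at or above 300, and chromosome 8 had a stretch with as many peaks. Next to these the 31 peaks of the second Hist1 window had a median of 168.8 and 7 at or above 300. Its peaks were also closer, with a median gap of 4.65 kb next to 13.2, 12.7 and 18.1 kb. After merging within 1 kb the order became 23 regions on chromosome 11, 22 in the second Hist1 window, 21 on chromosome 7 and 20 on chromosome 10. The lead of the histone window in number of peaks was thus lost on merging. No test of these differences was made, as each stretch is 1 region of 1 library.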

How the data were processed

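Per the labels, 1 p53 ChIP library and 1 input library of E15.5 kidney were made. The deposited score of each peak, 1 of 5 fields in the p53 list, is the authors' own value. Its track line names MACS peaks, and the submitters' processing notes name MACS and mm9. The scale of the score is not stated in the file. For the aligner, the settings and the use of the input library, nothing is given in these sources, and depth is unknown. Starts were made 1-based.

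Windows, gene lists, motifs and measures were chosen with earlier results of these data known. Peaks set out to be named were the 3 highest-scoring, widest, narrowest and closest of each window, its edge peaks, every peak scoring at least 300 and runs of 3 or more. Not all of these are named above. No sequence of mm9 was used, so tests of peaks against genes were not run, and no proteins were compared. Medians, exact binomial and Poisson intervals at the 95% level (counting error only) and global alignments of promoters were computed with Python 3.11.15, numpy 2.4.6, pandas 2.3.3, scipy 1.17.1 and Biopython 1.88. Window counts, gaps, widths and scores, merging, the CCAAT search and the interval of a median were tested on planted or simulated data. The binomial and Poisson intervals and the alignments were not. Alternatives were a score of at least 100, merging within 1 kb, any overlap with a window, windows widened by 20 kb, leaving out the widest 1% of peaks, other neighbour distances and motifs on 1 strand.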

Additional observations from a re-analysis of the deposited data

How the results depend on the processing

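Of 107 values under alternatives, 98 stayed within their intervals, or within 1.5 times for counts, and 9 did not. Keeping peaks with a score of at least 100 lowered the second Hist1 window to 20 peaks and 44.4 per Mb and raised the median score of all windows to 195.8, which the filter itself does. Merging within 1 kb raised the median gap from 6.15 to 10.6 kb, the median width of all windows from 1083 to 1491 bp and that of the second Hist1 window from 1178 to 1961 bp, as merging makes regions longer. The share of histone peaks with a neighbour was 36.8% within 2 kb and 98.2% within 50 kb, next to 7.53% and 53.97% of all peaks. On the gene's own strand the octamer was in 13.5% of histone windows, next to 0.877% of all promoters. Values within a wide interval could still move by over 1.5 times. Leaving out the widest 1% lowered the share scoring at least 300 from 22.6 to 11.1% in the second Hist1 window and from 15.8 to 9.62% over all windows, a score of at least 100 raised the former to 35%, and merging raised the median width of the first Hist1 window from 762 to 1236 bp. Any overlap with the window and widening by 20 kb moved no value out of its interval or by over 1.5 times. Alternatives were not run on results that need an mm9 genome. No paired analysis was possible because there was 1 library per group. Without depths, the effect of deeper sequencing on weak peaks cannot be judged.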
